A study of Rattus norvegicus with 12 samples.

Results

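The comparison described here is that of heart muscle taken 1 day after ligation of a coronary artery with heart muscle of sham-operated rats. Its members are the 4 arrays, of 12 in all, whose labels give day 1 or the sham operation, and the genes followed are those that changed in the same direction in animals with and without diabetes. All rats were male Sprague-Dawley rats injected at 8 weeks of age, with streptozotocin at 65 mg/kg in the diabetic groups and with citrate buffer alone in the non-diabetic groups, and operated on 10 weeks later. Streptozotocin kills pancreatic beta cells and so removes the source of insulin, and blood sugar was left uncontrolled. In the day 1 groups the left anterior descending coronary artery was tied off and tissue was taken after 24 hours. The sham groups had the same injections and a sham operation, but how long after it their tissue was taken is not stated in the labels. The labelled age was 18 weeks in all 4 groups. In the later groups, which also entered the model, it was 19 weeks at day 7, 20 at day 14 and 22 at day 28. At day 56 it was 22 weeks without and 26 weeks with diabetes. The tissue was the left ventricular free wall remote from the infarct, so the muscle examined was not itself deprived of its artery; the sham arrays carry the same tissue label, which mentions an infarct although no artery was tied. Each array held RNA pooled from 3 rats, and no condition had a second array.

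Tying off a coronary artery kills the muscle that it supplies and starts a wound response. Within hours, dying cells and stressed vessels release cytokines and chemokines, neutrophils enter from the blood and monocytes follow, the liver sends out acute phase proteins, and adrenal stress hormones rise. The surviving wall away from the infarct takes over the work of pumping, is stretched, and is known to switch on stretch-responsive genes and natriuretic peptides and to lower the potassium currents that repolarise the muscle cell. Scar collagen is made later, as fibroblasts become active.

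The values are intensities deposited by the authors on a linear scale, used here as log2 of the intensity plus 16. A difference of 1 on that scale is a doubling for a bright gene and less than the true change for a dim gene. Where a pair of values is given without further words, the non-diabetic array comes first and the diabetic array second. The median intensity over all probe sets was 30.3 and 30.0 on the sham arrays. Cardiomyocyte markers were bright on all 4 arrays, with a summed intensity of 9 genes of 50670 and 45010 on the sham arrays and of 50310 and 40240 on the day 1 arrays. By its brightest probe set none of these 9 markers passed the test described below. The tissue label of heart muscle therefore had its defining markers on every array of the comparison.

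The arrays differed in the evenness of their signal along transcripts, and this is given before any gene because the results below can run along it. Labelling of RNA for these arrays starts at the 3' end, so the gap from the 3' to the 5' end of a transcript grows where the 5' part is under-represented. For beta-actin the 3' minus 5' difference on the log2 scale was 0.50 and 0.48 on the sham arrays and 0.99 and 0.99 on the day 1 arrays. For hexokinase it was 1.37 and 1.46 on the sham arrays and 2.97 and 3.36 on the day 1 arrays, and between the 3' and the middle probe set it was 0.03 and -0.15 against 1.88 and 2.11. The day 1 arrays thus had the larger differences for both transcripts without overlap with sham. GAPDH showed no such gap, with 0.24 and 0.36 on the sham arrays and 0.36 and 0.32 on the day 1 arrays, and the 3' minus middle difference of beta-actin overlapped as well.

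The day 7 arrays shared this feature with the day 1 arrays. Over the 4 arrays of day 1 and day 7 the beta-actin difference was 0.97 to 0.99 and on the 8 others it was 0.37 to 0.59, and for hexokinase the ranges were 2.55 to 3.36 and 1.05 to 2.24. The same 4 arrays also stood apart in bacterial transcripts that carry no rat sequence and serve on such arrays as controls added by the laboratory. The 3' minus 5' difference of dap was 1.44 to 2.02 on the 4 arrays and 0.84 to 1.42 on the 8 others, and that of thr was 1.38 to 1.60 and 0.81 to 1.33. For phe it ran the other way, at 0.20 to 0.55 and 0.76 to 1.13, as it did for bioB, at 0.05 to 0.27 and 0.33 to 0.72. The difference of bioC was 0.48 to 0.59 and 0.20 to 0.30, that of bioD was -0.03 to 0.21 and -0.28 to -0.05, and those of lys and cre overlapped. The titles of these 4 arrays hold numbers alone after a shared prefix and those of the 8 others hold letters, but no label says what this marks. Whatever set the 4 arrays apart cannot be told apart from the first week after ligation. The probe sets of a single gene could differ in this respect, as in the myosin heavy chains, the main motor proteins of heart muscle. For Myh7 the brightest probe set read 6178 and 6682 on sham and 5278 and 5298 on day 1. Another Myh7 probe set read 1649 and 2171 on sham, against 45.6 and 51.8 at day 1. At day 7 it read 50.5 and 70.4, while the 6 later arrays read 871 to 5639. For Myh6 the brightest probe set read 6135 and 3619 on sham and 5650 and 1790 on day 1. Another Myh6 probe set read 1307 and 418 on sham, against 58.7 and 12.35 at day 1 and 49.1 with 41.1 at day 7, and 324 to 3209 on the later arrays.

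**Figure D1:**
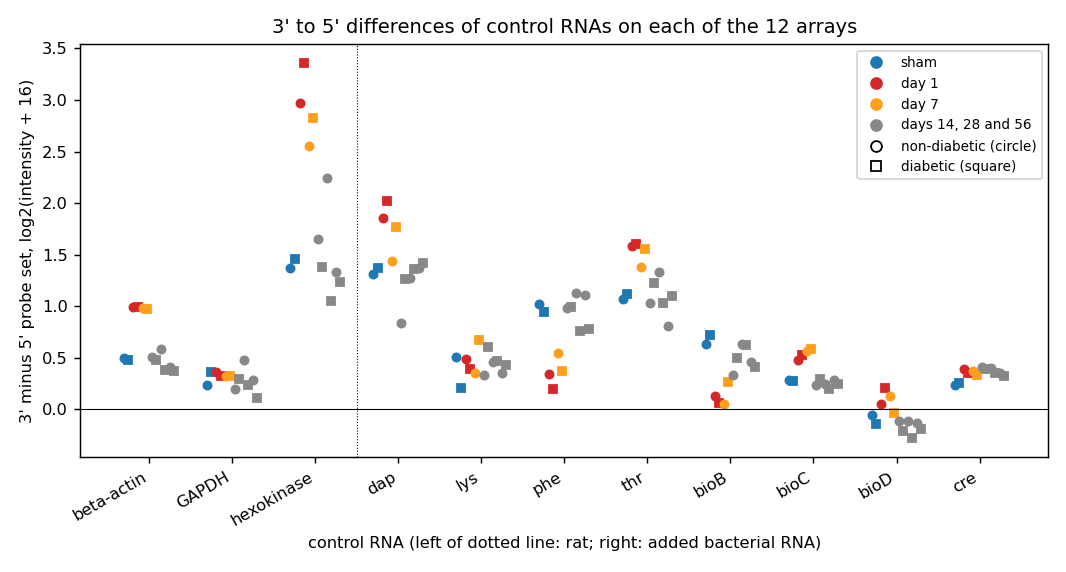
3' signal minus 5' signal of each control RNA on the log2(intensity + 16) scale (vertical axis), 1 point per array, for 3 rat transcripts and 8 added bacterial transcripts (horizontal axis). Red and orange points of day 1 and day 7 lie apart from all others for beta-actin (0.97 to 0.99 against 0.37 to 0.59), hexokinase, dap, phe, thr, bioB, bioC and bioD, and among them for GAPDH, lys and cre.

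The first question was which genes differed between day 1 and sham in both conditions. A linear model with the 6 time points and diabetes was fitted to all 12 arrays with limma, the Benjamini-Hochberg method adjusted the p-values of 18625 probe sets, and a probe set passed at an adjusted p under 0.05. On this test 783 probe sets (4.2%) were higher and 609 (3.27%) lower on day 1. Taking 1 probe set per gene, 392 of 10623 genes (3.69%) were higher and 245 (2.31%) lower. A gene counted as changed in the same direction when it passed and also differed by at least 1 on the log2 scale in each condition, which is 1 array against 1 with no test of its own. By this rule 199 genes (1.87%) were higher and 97 (0.913%) lower, and in probe sets 402 (2.16%) and 266 (1.43%). The higher genes had a median difference of 1.64, from 1.09 to 5.24, and the lower genes one of -1.48, from -1.02 to -4.92. Just inside the minimum lay Synj1, with 1.00 and 1.19 in the 2 conditions, and just outside it Pgam5, with 0.997 and 1.83, and Etv3, with 1.18 and 0.997. On the lower side Klf2, with -1.0 and -1.71, was just inside and Abca8a, with -0.999 and -1.36, just outside.

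The spread behind these p-values is the variation, from time point to time point, of the gap between the 2 conditions. It mixes differences between pools with any true change of that gap. The variation between the rats of a pool cannot be seen, and each side of the comparison was 2 pools. In simulated data the test of day 1 against sham recovered 1% of planted changes of 1 on the log2 scale. Of planted changes of 2 it recovered 84%. A gene that did not pass, or a list without calls, is therefore not shown to be unchanged. Single arrays carried much of the count. Of the 1392 probe sets past the threshold, a fit without the diabetic sham array left 187, without the diabetic day 1 array 229, without the non-diabetic sham array 316 and without the non-diabetic day 1 array 893. Without the day 7 pair 905 passed and without the day 28 pair 2701. The balance of directions depended on scaling. Higher probe sets were 56.2% of the calls as deposited, 46.1% after quantile normalization and 38.2% after the medians of the tested probe sets were set equal. The median difference of all genes was 0.09 as deposited and -0.04 with equal medians, so differences are best read relative to that shift.

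The genes that changed in both conditions were also set against the split of the arrays. All 4 arrays of day 1 and day 7 were above all 8 others in 109 of the 199 higher genes (54.8%), against 12% of all genes tested. They were below all 8 others in 67 of the 97 lower genes (69.1%), against 5.68% of all genes. The day 1 arrays stood beyond all 10 other arrays in 116 of the 199 higher genes and in 32 of the 97 lower genes, against 7.48% and 3.11% of all genes. The genes were chosen for day 1 against sham, which fixes part of these orders, so nothing is read from the shares. Of 2792 genes with several probe sets tested, 417 had at least 1 past the threshold and 63 had 2 or more. In 33 genes all probe sets passed in 1 direction, and in 5 genes probe sets passed in opposite directions. For these reasons the value at day 7 is given beside that of sham for each gene described in full. Day 1 and day 7 arrays are on the same side of the split, but day 1 lay further out in some controls. The hexokinase 3' minus 5' value was 2.97 in non-diabetic and 3.36 in diabetic rats on day 1, against 2.55 and 2.82 at day 7, and dap, thr and phe also separated the 2 times. A difference between day 1 and day 7 can therefore still run along the split, and the day 7 tissue is also a later stage of healing. The differences of day 1 from sham and from day 7 share the day 1 arrays and are not independent of each other.

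**Figure D2:**
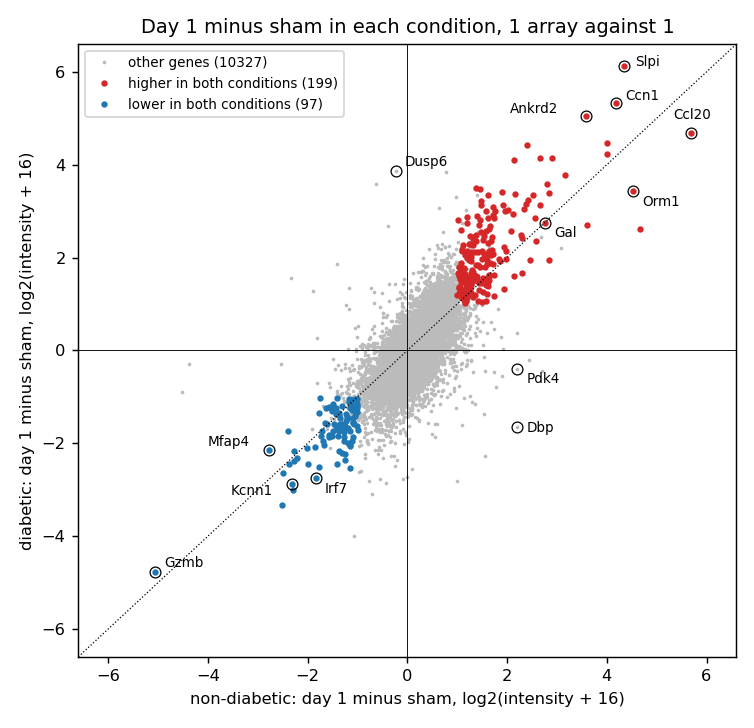
Day 1 minus sham on the log2(intensity + 16) scale in non-diabetic (horizontal axis) and diabetic rats (vertical axis), 1 point per gene and 1 array against 1 in each condition. Red points mark the 199 genes higher and blue points the 97 genes lower in both conditions under the limma test and the minimum of 1, grey points all other genes, and the dotted line equal changes; Dusp6, Pdk4 and Dbp lie far from that line.

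Among the 15 higher genes with the largest change shared by both conditions, secreted signals and defence proteins were prominent. Ccl20, a chemokine that attracts lymphocytes and dendritic cells through the receptor CCR6, read 3.58 and 4.11 on the sham arrays, 996 and 498 on day 1 and 11.6 and 21.1 on day 7. It was dim on all 10 arrays other than those of day 1, where the highest value was 32.7. The difference from sham was 5.18 ± 0.34 (SE, 2 arrays against 2, limma adjusted p = 2.2e-05) and that from day 7 was 4.50. Slpi, a secreted inhibitor of neutrophil proteases, read 6.68 and 12.1 on sham, 448 and 1948 on day 1 and 282 and 190 on day 7, so it also read above sham on day 7. Its difference from sham was 5.24 ± 0.56 (limma adjusted p = 3.8e-04). Reg3b, a secreted lectin of the Reg family, read 27.2 and 21.9 on sham, 680 and 817 on day 1 and 260 and 89.4 on day 7, a difference of 4.23 ± 0.50 from sham (limma adjusted p = 8.3e-04).

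Orm1, an acute phase glycoprotein of plasma, read 11.2 and 14.6 on sham, 609 and 313 on day 1 and 23.8 and 36.8 on day 7. It rose by 3.98 ± 0.58 (limma adjusted p = 0.0030) and was 3.31 above day 7. Mt2A, a metallothionein that binds zinc and is induced by glucocorticoids and metals, read 161 and 220 on sham, 1217 and 2809 on day 1 and 304 and 213 on day 7. It rose by 3.19 ± 0.45 (limma adjusted p = 0.0025) and was 2.78 above day 7. Lcn2, which binds the iron carriers of bacteria, read 48.2 and 78.3 on sham, 1603 and 566 on day 1 and 79.2 and 60.7 on day 7. Its difference from sham was 3.64 ± 0.45 (limma adjusted p = 9.9e-04) and that from day 7 was 3.50. In these 3 genes both day 1 arrays stood above all 10 others.

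Ccl2, the main chemokine for monocytes, read 133 and 225 on sham, 1050 and 2515 on day 1 and 626 and 355 on day 7. It rose by 3.12 ± 0.66 (limma adjusted p = 0.020). Timp1, an inhibitor of matrix metalloproteinases, read 177 and 133 on sham, 1419 and 2614 on day 1 and 764 and 618 on day 7, a rise of 3.52 ± 0.76 (limma adjusted p = 0.022). Both genes lost their call without the diabetic day 1, the diabetic sham or the non-diabetic sham array, with adjusted p-values of at most 0.20. Gal, the precursor of the neuropeptide galanin, read nearly alike in both conditions, with 67.3 and 75.7 on sham, 547 and 602 on day 1 and 32.9 and 55.4 on day 7. It rose by 2.75 ± 0.24 (limma adjusted p = 1.1e-04) and was 3.32 above day 7. Angptl4, a secreted inhibitor of lipoprotein lipase, differed between the conditions already on sham, at 2.15 and 154, and read 204 and 1100 on day 1. Its rise of 3.15 ± 0.84 (limma adjusted p = 0.046) held in 8 of 18 alternative settings.

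Ankrd2, a titin-associated protein of stretched and injured muscle, read 13.4 and 10.5 on sham, 335 and 856 on day 1 and 12.2 and 8.22 on day 7. Neither day 1 value was approached on any other array. The rise was 4.31 ± 0.37 over sham (limma adjusted p = 1.1e-04) and the difference from day 7 was 4.41. Tgm1, a transglutaminase that cross-links proteins, read 63.1 and 73.0 on sham, 486 and 1557 on day 1 and 66.6 and 76.1 on day 7, a rise of 3.41 ± 0.51 (limma adjusted p = 0.0035).

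In 4 other genes of the same rank all arrays of day 1 and day 7 stood above the 8 others. Ccn1, a matrix-associated signalling protein, read 68.3 and 81.4 on sham, 1520 and 3871 on day 1 and 1191 and 1338 on day 7. Its difference was 4.75 ± 0.33 from sham (limma adjusted p = 3.0e-05) and 0.93 from day 7, and the other 6 arrays read 69.8 to 89.5. Ranbp1, a regulator of the Ran GTPase in nuclear transport, read 11.9 and 18.5 on sham, 434 and 631 on day 1 and 357 and 293 on day 7, with a difference of 4.12 ± 0.24 from sham (limma adjusted p = 1.1e-05) and of 0.67 from day 7. Rgcc, a regulator of the cell cycle, was 3.47 ± 0.25 above sham and 0.46 above day 7. Rps27l, a ribosomal protein paralogue, was 2.90 ± 0.39 above sham and 0.17 above day 7, and its near-identical relative Rps27 could share signal with it. The part of the array split in these differences was not tested.

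**Figure D3:**
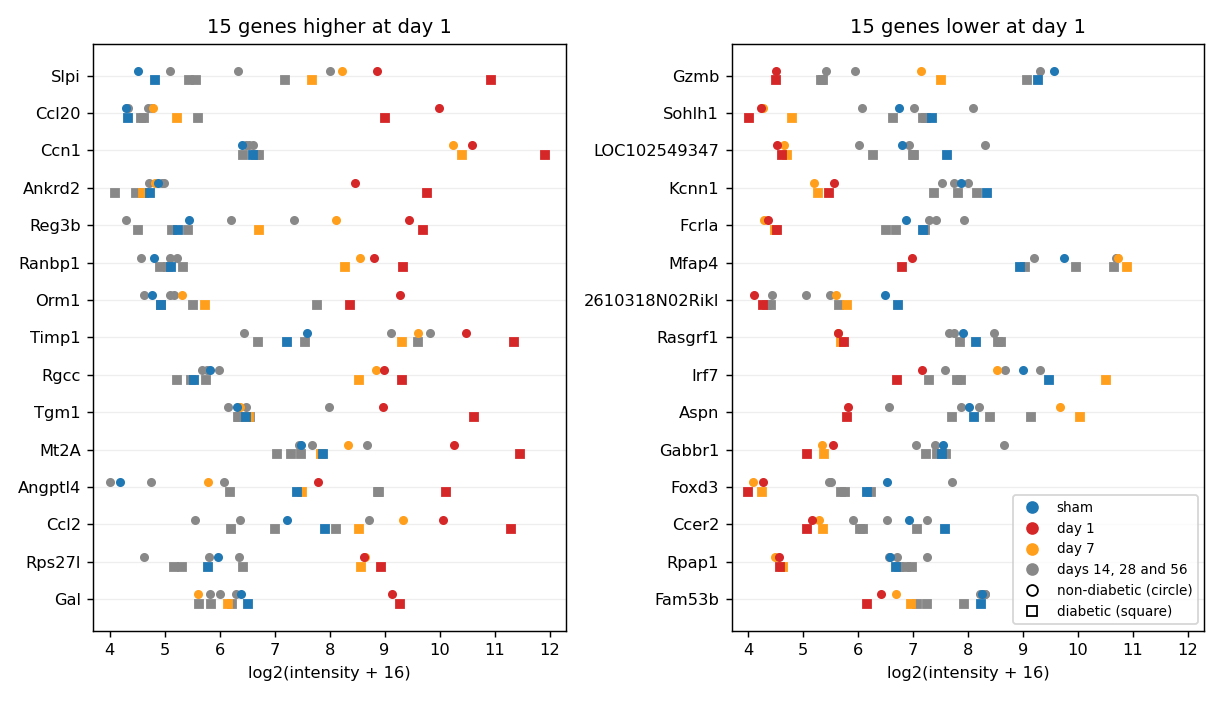
Level on each of the 12 arrays as log2(intensity + 16) (horizontal axis) for the 15 genes higher and the 15 genes lower at day 1 with the largest change shared by both conditions (vertical axis); circles are non-diabetic and squares diabetic arrays. Day 1 points of Ccl20, Ankrd2, Orm1, Mt2A, Gal and Tgm1 stand alone on the right, while those of Ranbp1, Rgcc and Rps27l lie next to day 7.

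Of the 15 lower genes with the largest shared change, Gzmb had the largest difference by brightest probe set. Gzmb, granzyme B of cytotoxic lymphocytes, read 743 and 604 on sham, 6.74 and 6.62 on day 1 and 126 and 167 on day 7. The other 6 arrays ranged from 24.0 to 619. The difference was -4.92 ± 1.17 (limma adjusted p = 0.031). It lost its call when any 1 of the 4 sham and day 1 arrays, or the day 56 pair, was left out. A dimmer Gzmb probe set had only -0.89 ± 0.20 (limma adjusted p = 0.025), with -1.04 and -0.73 in the 2 conditions. The size of the fall thus depended on the probe set. Mfap4, a protein of elastic microfibrils made by fibroblasts and smooth muscle, read 840 and 477 on sham, 109 and 95.5 on day 1 and 1673 and 1872 on day 7. It fell by 2.46 ± 0.45 (limma adjusted p = 0.0098) and differed from day 7 by -3.92. Aspn, a small collagen-binding proteoglycan, read 243 and 261 on sham, 39.9 and 39.5 on day 1 and 795 and 1028 on day 7. It fell by 2.27 ± 0.47 (limma adjusted p = 0.018) and differed from day 7 by -4.05. In Mfap4 and Aspn the day 1 arrays were the lowest of all 12.

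Irf7, a transcription factor that amplifies the interferon response, read 492 and 692 on sham, 127 and 88.7 on day 1 and 353 and 1438 on day 7. The difference from sham was -2.30 ± 0.61 (limma adjusted p = 0.046), and it passed in 11 of 18 alternative settings. Kcnn1, a calcium-activated potassium channel, read 217 and 310 on sham, 31.0 and 28.1 on day 1 and 20.4 and 22.4 on day 7, with -2.60 ± 0.24 from sham (limma adjusted p = 1.5e-04) and 0.28 from day 7. Rasgrf1, an exchange factor for Ras known from neurons, read 224 and 265 on sham, 33.5 and 37.6 on day 1 and 33.4 and 35.8 on day 7. For Kcnn1 and Rasgrf1 the day 7 arrays were as low as those of day 1. The same held for Fcrla, Foxd3, Rpap1, Gabbr1, LOC102549347, Sohlh1 and Ccer2, whose day 1 minus day 7 differences were between -0.42 and 0.06. Gabbr1, a subunit of the receptor for GABA, differed between its probe sets, with -2.22 for the brightest and 0.08 and 0.54 for the 2 others. Fam53b was also uneven between probe sets, with -1.96 for the brightest, and 2610318N02Rikl had -2.42.

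**Figure D4:**
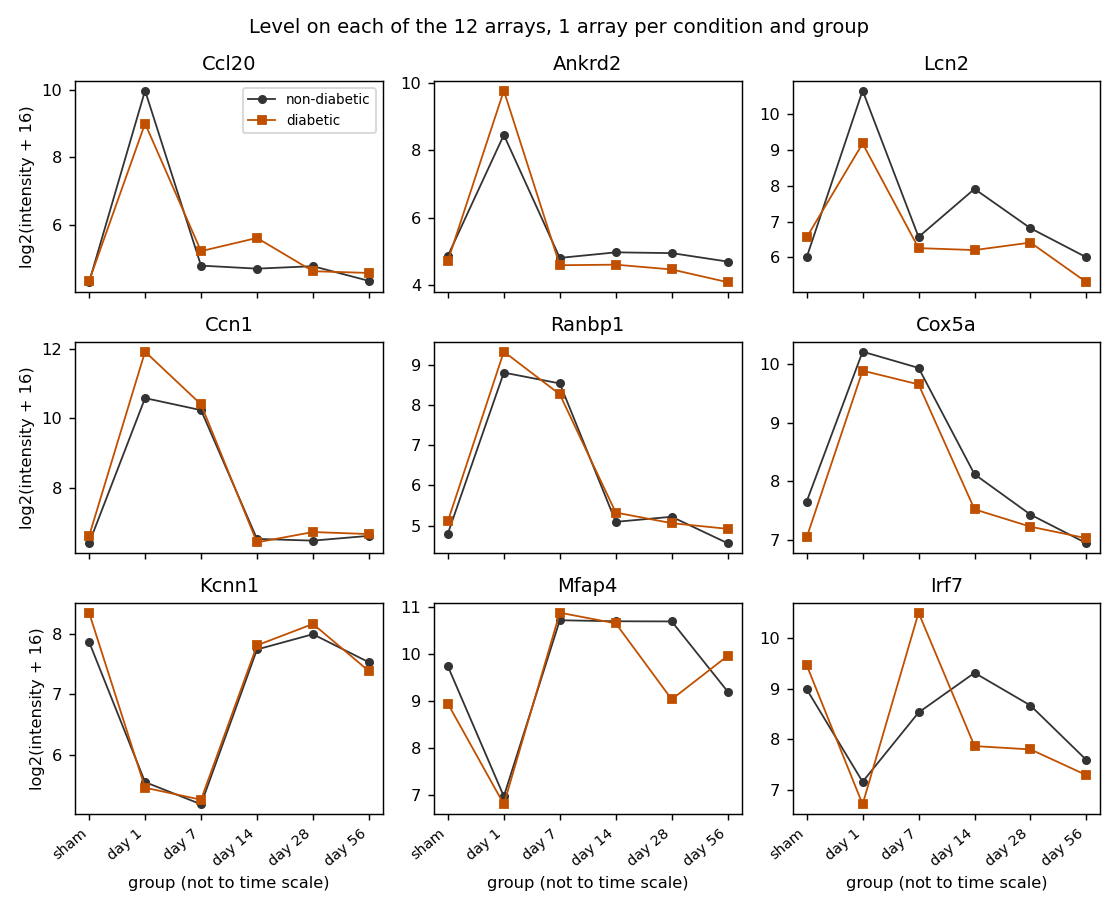
Level as log2(intensity + 16) (vertical axis) on the 12 arrays from sham to day 56 (horizontal axis, not to time scale), with 1 array per point and lines joining the arrays of a condition. Ccl20, Ankrd2 and Lcn2 were high on day 1 and not on day 7, Ccn1, Ranbp1 and Cox5a were high on both, Kcnn1 was low on both, and Mfap4 and Irf7 were low on day 1 and above sham on day 7 or, for non-diabetic Irf7, below it.

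Of the 30 genes, 19 passed in all alternative settings in which they were tested. The other 11 were Angptl4, Timp1, Ccl2, Gzmb, Aspn, Mfap4, Irf7, Ccer2, Fam53b, Foxd3 and 2610318N02Rikl. Without the diabetic day 1 array 11 of the 30 lost their call, without the diabetic sham array 10, without the non-diabetic sham array 7 and without the non-diabetic day 1 array 5.

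The genes were also followed in 33 lists by function. Each list is described by how many of its tested members passed the limma test over all genes, against 3.69% higher and 2.31% lower of all genes, and by its median difference, against 0.09 for all genes. After each count, 4 numbers give the members that passed when the diabetic day 1, the diabetic sham, the non-diabetic day 1 or the non-diabetic sham array was left out, in that order. A member that passed need not have met the minimum of 1 in both conditions. Lists share some genes. The level filter took in all 12 arrays, so a dim gene could be tested because it was high on day 1, and the counts over tested members lean upward for this reason. A level above the filter on the 8 arrays that are neither sham nor day 1 was found for 10529 of the 10623 genes, of which 366 were higher and 244 lower. Where this changes a list, the count over such members is given too.

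Of the chemokines, 5 of 20 tested were higher and 1 was lower (3, 3, 6 and 3), and the median was 0.03. Ccl20, Ccl3 and Cxcl1 were under the filter level on the 8 arrays of other times, and of the 17 members above it there 2 were higher and 1 lower, with a median of -0.23. The higher members were Ccl20, Ccl2, Ccl7, Ccl3 and Cxcl1. Cxcl1, which draws neutrophils, read 8.96 and 18.5 on sham, 110 and 269 on day 1 and 31.5 and 33.7 on day 7, a rise of 2.69 ± 0.25 (limma adjusted p = 1.5e-04). Ccl7, a further monocyte chemokine, rose by 2.93 and Ccl3, a chemokine of activated macrophages, by 2.15. Cxcl9, an interferon-gamma-induced chemokine for T cells, fell by 1.55, from 108 and 137 on sham to 32.3 and 29.9 on day 1. The chemokines that rose thus attract neutrophils, monocytes and cells with CCR6, and the member that fell belongs to those induced by interferon. Cxcl2, a relative of Cxcl1, was below the level filter and was not tested, at 2.24 and 1.65 on sham and 34.8 and 186 on day 1. Of the 4 chemokines below the filter 2 were higher and 1 lower in both conditions.

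Of the interleukins and related cytokines only 7 of 18 were above the filter, and Il1b alone passed (1, 1, 1 and 1). Il1b, the secreted interleukin-1 that starts much of the sterile inflammatory response, read 37.1 and 33.4 on sham, 146 and 231 on day 1 and 61.1 and 58.5 on day 7, a rise of 1.96 ± 0.27 (limma adjusted p = 0.0020). Of the 11 below the filter, 4 were higher and 4 lower in both conditions. Il6 was at 2.04 and 3.98 on sham and 36.6 and 60.8 on day 1, and Csf3, the growth factor for neutrophils, at 4.07 and 29.7 on sham and 0.702 and 0.00344 on day 1. Among receptors and feedback regulators of cytokine signalling 5 of 24 were higher (1, 1, 4 and 3), with a median of 0.31. Without Il1r2 and Socs3, which were under the filter level on the 8 arrays of other times, 3 of 22 were higher. Il1r2, a decoy receptor that binds interleukin-1 without signalling and is abundant in neutrophils, read 3.07 and 2.45 on sham and 84.9 and 383 on day 1, a rise of 3.42 ± 0.51 (limma adjusted p = 0.0033). Tnfrsf12a, the receptor of the cytokine TWEAK, rose by 2.52, Nfkbiz, a nuclear partner of NF-kappaB, by 1.80, Socs3, the feedback inhibitor of interleukin-6 signalling, by 1.05 and Il4r by 0.92. Nfkbiz was 0.32 above day 7, with all 4 arrays of the split above the 8 others, while Il1r2 was 2.17 above day 7.

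Acute phase and secreted defence proteins had the highest median of the lists, 1.66, with 6 of 16 higher and 0 lower (5, 5, 7 and 5). The 6 were Slpi, Reg3b, Lcn2, Mt2A, Orm1 and S100a8, a calcium-binding protein of neutrophils that rose by 2.48. This count changed little with any array left out. S100a9, its partner, had 2.10 ± 0.89 and did not pass (limma adjusted p = 0.17). Of the 10 members below the filter 5 were higher and 2 lower in both conditions. Saa3, a serum amyloid A protein, read 3.11 and 8.67 on sham and 16.6 and 69.9 on day 1, and Fgg, the gamma chain of fibrinogen, read 32.4 and 12.2 on sham and 5.21 and 7.16 on day 1. Among adhesion molecules 1 of 12 was higher (0, 0, 1 and 1), Sele, the selectin with which activated endothelium catches leukocytes, at 1.79 ± 0.29 (limma adjusted p = 0.0048). It was under the filter level on the 8 arrays of other times, and none of the 11 members above it there passed.

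Of the immediate early transcription factors 3 of 18 were higher and 2 lower (1, 1, 3 and 2), and without Fosl1, under the filter level at other times, 2 of 17 were higher. Fosl1, an AP-1 subunit, read 27.3 and 23.6 on sham, 104 and 216 on day 1 and 5.57 and 11.9 on day 7, a rise of 2.01 ± 0.23 (limma adjusted p = 7.0e-04) and a difference of 2.77 from day 7. Myc, a driver of growth and ribosome production, rose by 2.00 and Egr2, a zinc finger factor induced by serum, by 2.12, the latter 0.07 above day 7. Klf2, a factor of quiescent endothelium under flow, fell by 1.35 and Jun by 1.06. Their differences from day 7 were 0.04 and -0.31. Other probe sets of Klf2 had -1.835 and -1.052, which passed, and -0.38, which did not. Fos had 1.21 ± 0.40 and did not pass (limma adjusted p = 0.086).

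Ribosome biogenesis and polyamine genes had a median of 0.95, with 18 of 19 above 0 and 7 higher (0, 0, 6 and 0), or 6 of 18 without Arg1, under the filter level at other times. Arg1, arginase, which feeds polyamine synthesis, rose by 2.13, Gnl3, nucleostemin, by 1.30, and Nop58, Bop1, Nop56, Nip7 and Polr1b, which build or transcribe ribosomal RNA, by 0.95 to 1.34. None of the 7 passed without the diabetic day 1, the diabetic sham or the non-diabetic sham array, and only Arg1 and Nip7 met the minimum of 1 in both conditions. Their differences from day 7 were 0.69 to 1.22.

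**Figure D5:**
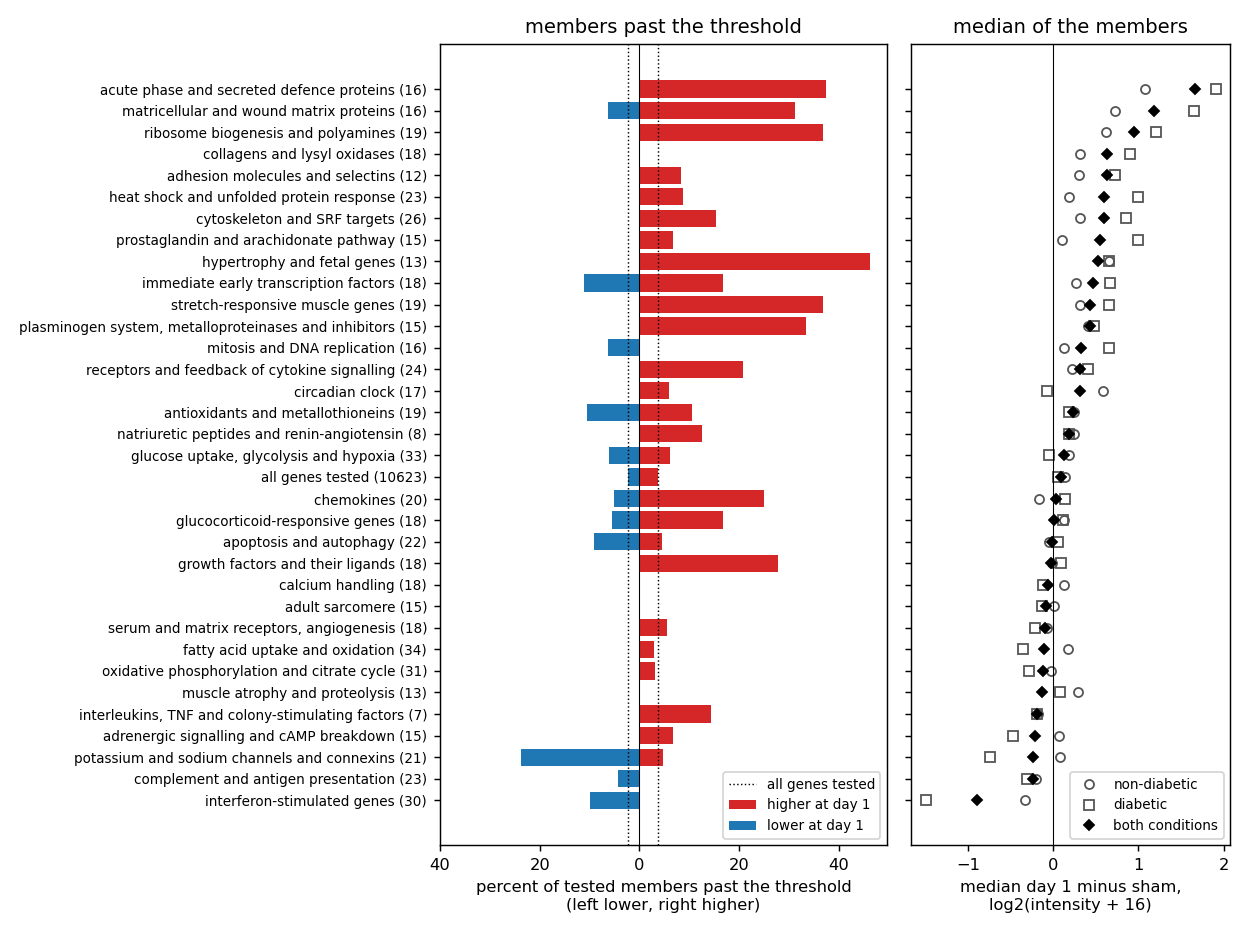
Percentage of tested members past the limma threshold (left panel, lower to the left and higher to the right, dotted lines for all genes) and median day 1 minus sham on the log2(intensity + 16) scale (right panel) for 33 gene lists and all genes, with the number tested in brackets. Acute phase proteins have the highest median, 1.66, and interferon-stimulated genes the lowest, -0.89; open circles and squares give the medians of single conditions.

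Matricellular and wound matrix proteins had a median of 1.18, with 5 of 16 higher and 1 lower (1, 1, 5 and 1). Beside Ccn1 these were Tnfaip6, a hyaluronan-binding protein induced by interleukin-1, at 1.59, Vcan, the proteoglycan versican, at 2.46, Tnc, tenascin C, at 2.41 and Ccn2, connective tissue growth factor, at 1.89. Tnc read 2.25 and 2.75 on sham, 44.0 and 144 on day 1 and 343 and 273 on day 7, so its rise had not reached the level of day 7. The differences from day 7 were 0.48 for Tnfaip6, 0.255 for Vcan, -1.715 for Tnc and 0.05 for Ccn2. Sparcl1, a relative of SPARC made by vessels, fell by 1.51 ± 0.27 (limma adjusted p = 0.0094). None of the 18 collagens and lysyl oxidases passed (0, 0, 1 and 0), although their median was 0.63. Col1a1, the main scar collagen, read 272 and 214 on sham and 154 and 109 on day 1, against 3344 and 3510 on day 7. Its other probe set read 92.5 and 61.1 on sham and 122 and 101 on day 1, so the sign of its difference depended on the probe set. Postn, periostin of activated fibroblasts, read 58.8 and 55.0 on sham, 145 and 461 on day 1 and 3560 and 3319 on day 7. The collagen list had a median of -1.61 against day 7. Vcan read 34.3 and 20.1 on sham. In non-diabetic rats it read 122 on day 1 against 224 on day 7, and in diabetic rats 384 against 146, so the order of the times differed between the conditions.

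Of the plasminogen and metalloproteinase genes 5 of 15 were higher (1, 2, 5 and 1), or 3 of 12 without members under the filter level at other times, among them Adamts4 and Plaur. Adamts4, an enzyme that cuts versican, rose by 2.76 ± 0.40 (limma adjusted p = 0.0027), from 9.11 and 3.67 on sham to 95.7 and 187 on day 1. Plaur, the receptor of urokinase, rose by 1.93, Plau, urokinase itself, by 1.45, Adamts9 by 1.07 and Timp1 as given above. Growth factors had 5 of 18 higher (1, 1, 5 and 3) with a median of -0.03. Tgfb2, a transforming growth factor, read 38.5 and 44.9 on sham, 274 and 560 on day 1 and 111 and 144 on day 7, a rise of 2.83 ± 0.39 (limma adjusted p = 0.0022). Hbegf, an EGF receptor ligand, rose by 1.5, the activin subunit genes Inhbb and Inhba by 1.97 and 1.76, and Pdgfa by 1.04.

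In heart muscle genes the stretch-responsive list had 7 of 19 higher (3, 2, 5 and 3) with a median of 0.43, or 6 of 18 without Ankrd2, under the filter level at other times. Beside Ankrd2 these were Flnc, a filamin that cross-links actin at the Z-disc, at 2.07, Lmcd1, an LIM protein, at 2.29, Ankrd23 at 1.77, Fhl1, an LIM domain protein of muscle, at 1.47, Xirp1 at 1.20 and Synpo2l at 1.10. Flnc read 224 and 248 on sham, 764 and 1417 on day 1 and 364 and 340 on day 7. Fhl1 read 1646 and 1756, 4093 and 5510, and 1693 and 2299. In both the day 1 arrays were above all others, and another probe set of Flnc had 1.24 and did not pass. Ankrd1, the relative of Ankrd2 that is usual in the ventricle, was at 6125 and 3714 on sham and 7000 and 5885 on day 1 and did not pass, with 0.43 ± 0.21 (limma adjusted p = 0.23).

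Of the natriuretic peptides, Nppb, made by stretched ventricular muscle, read 2542 and 2044 on sham, 5021 and 5172 on day 1 and 3296 and 3609 on day 7. It rose by 1.16 ± 0.21 (limma adjusted p = 0.0100), was 0.56 above day 7, and was the only member of its list of 8 to pass (0, 0, 1 and 0). Nppa, at 2229 and 5725 on sham and 3498 and 7476 on day 1, did not pass. The hypertrophy list, which shares Nppb, Fhl1 and Xirp1 with these, had 6 of 13 higher (1, 0, 4 and 2). The others were Myocd, a coactivator of muscle transcription, at 1.19, Rcan1, a target and inhibitor of calcineurin, at 1.22, and Mybpc2 at 1.28. Of these 6 only Fhl1 met the minimum of 1 in both conditions. By their brightest probe sets the adult and fetal myosin genes Myh6 and Myh7 had -0.56 ± 0.26 and -0.28 ± 0.16, and neither passed. The other probe sets described with the array split had -4.04 ± 0.49 (limma adjusted p = 9.5e-04) and -4.88 ± 0.39 (limma adjusted p = 7.3e-05). The part of the split in that disagreement was not tested. By brightest probe sets, none of 15 adult sarcomere genes (0, 0, 1 and 0) and none of 18 calcium handling genes (0, 0, 0 and 0) passed.

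Of the ion channels 5 of 21 were lower and 1 higher (3, 3, 5 and 4). Kcnip2, the subunit that sets the density of the transient outward potassium current, read 1858 and 2175 on sham, 771 and 411 on day 1 and 1133 and 1249 on day 7. The 6 later arrays read 1722 to 2418. It fell by 1.80 ± 0.28 (limma adjusted p = 0.0045) and differed from day 7 by -1.06. Kcnv2, a silent potassium channel subunit, fell by 1.12, Kcnh2, which carries the rapid delayed rectifier current, by 1.37, and Hcn4, the pacemaker channel, by 0.99, beside Kcnn1. Kcnv2 was dim, at 29.1 and 26.1 on sham, 3.96 and 4.24 on day 1 and 41.6 and 42.4 on day 7. Kcnh2 read 67.55 and 110 on sham, 29.4 and 18.4 on day 1 and 28.4 and 75.5 on day 7. Hcn4 read 45.95 and 45.3 on sham, 12.9 and 17.2 on day 1 and 6.65 and 7.39 on day 7. For Hcn4, as for Kcnn1, day 7 was no higher than day 1, and the part of the array split was not tested. Scn3b, a sodium channel beta subunit, rose by 2.77 ± 0.32 (limma adjusted p = 6.2e-04), from 17.1 and 21.1 on sham to 156 and 316 on day 1, with 59.4 and 111 on day 7. Kcne1 was not tested, at 1.19 and 4.25 on sham and 53.4 and 34.2 on day 1.

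Metabolic lists moved little as groups. Angptl4 alone passed of 34 genes of fatty acid uptake and oxidation (0, 0, 1 and 0), and the median was -0.11. Of 33 genes of glucose use and hypoxia 2 were higher and 2 lower (1, 0, 4 and 1). Slc2a4, the insulin-regulated glucose transporter, read 1184 and 453 on sham, 450 and 88.5 on day 1 and 550 and 405 on day 7, a fall of 1.77 ± 0.39 (limma adjusted p = 0.024). Pdk2, a kinase that inhibits pyruvate dehydrogenase, fell by 1.18. Slc16a3, a lactate exporter induced by hypoxia, rose by 1.87 and Hmox1, haem oxygenase, by 2.08; Slc16a3 was 2.38 above day 7. Cox5a was the only member of 31 genes of oxidative phosphorylation to pass (1, 1, 1 and 1), at 2.71 ± 0.26. It read 185 and 115 on sham, 1172 and 932 on day 1 and 964 and 790 on day 7, while the 6 later arrays read 107 to 262. No other member passed, and the median of the list was -0.12.

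Interferon-stimulated genes had the lowest median of the lists, -0.89, with 1 of 30 above 0, and 3 passed, all lower (0, 0, 3 and 1). The median was -0.33 without and -1.5 with diabetes. Beside Irf7 the members that passed were Mx2, a GTPase that blocks viruses, at -1.89, and Irgm, an immunity-related GTPase, at -1.37. Of the 3 only Irf7 met the minimum of 1 in both conditions. Mx2 differed by -0.70 and -3.09, and Irgm by -0.80 and -1.94. Irgm read 106 and 186 on sham, 53.8 and 36.6 on day 1 and 143 and 225 on day 7. Mx2 read 56.5 and 162, 28.6 and 4.90, and 116 and 302. Isg15, a ubiquitin-like protein, read 153 and 428 on sham, 82.6 and 47.5 on day 1 and 289 and 988 on day 7, but it did not pass. For these 4 genes the day 1 values were below both sham and day 7 in each condition. On the 3 later diabetic arrays they read 40.6 to 85.6 for Irgm, 17.6 to 34.3 for Mx2, 31.3 to 81.6 for Isg15 and 140 to 217 for Irf7, all below diabetic sham. On the 3 later non-diabetic arrays they read 54.1 to 107, 19.0 to 47.4, 31.4 to 183 and 176 to 621, which reached or passed non-diabetic sham for Irgm, Isg15 and Irf7. The median of the list was -0.11 from all later arrays and -1.61 from day 7. Of 23 genes of complement and antigen presentation 1 was lower (0, 0, 2 and 0), Cd74, a chaperone of class II antigen-presenting molecules, at -0.92 ± 0.23 (limma adjusted p = 0.036).

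Among the remaining lists, heat shock and unfolded protein genes had a median of 0.60 with 2 of 23 higher (0, 0, 2 and 0), Creld2, a chaperone of the endoplasmic reticulum, at 1.95 and Hspb1, a small heat shock protein, at 1.36. Cytoskeleton and serum response factor targets had a median of 0.60 with 4 of 26 higher (1, 1, 5 and 1), Flnc, Actn1, Tubb6 and Cnn2, at 1.42 to 2.23. Of 19 antioxidant genes Mt2A and Hmox1 were higher and the extracellular enzymes Gpx3 and Sod3 were lower (1, 1, 2 and 1), the latter at -1.04 and -1.44. Of 18 glucocorticoid-responsive genes 3 were higher and 1 lower (2, 2, 3 and 2). The 3 were Lcn2, Mt2A and Angptl4, while Tsc22d3, a classic target of the receptor, was at -1.01 and Fkbp5, another, at 0.82 without passing. Bhlhe40 alone passed of 17 clock genes (0, 1, 1 and 1), at 1.48, and Rgs2, which dampens adrenergic signalling, of 15 adrenergic genes (0, 0, 1 and 1), at 1.63. Ptgds was the only member of 15 prostaglandin genes (1, 0, 0 and 0), at 1.45, and S1pr3 of 18 angiogenesis genes (0, 0, 0 and 0), at 1.16. Bcl2a1 was higher and Tp53inp1 and Bcl2 lower of 22 apoptosis genes (0, 0, 0 and 0), at 1.90, -0.91 and -0.81. Against day 7 the differences were 0.15 for Bcl2a1, 0.04 for Tp53inp1, 0.12 for Bcl2, -0.01 for Bhlhe40 and -0.12 for Ccne1. They were 0.63 for Rgs2, 0.70 for S1pr3 and 1.29 for Ptgds. The part of the array split in these genes was not tested. Ccne1 was lower of 16 cell cycle genes (0, 0, 0 and 0), at -1.06, and 0 of 13 atrophy genes passed (0, 0, 1 and 0).

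Cell type markers give the levels of other cells in the same RNA. In pooled tissue, fewer cells of a type and less RNA per cell cannot be told apart. Of 5 tested neutrophil markers 3 were higher (1, 1, 3 and 2), but Il1r2 and Csf3r were under the filter level at other times, so this count is no support for a rise of the list. Of the 2 markers above it there S100a8 passed and S100a9 did not. The summed intensity of all 8 neutrophil markers on the array was 358 and 232 on sham and 919 and 2314 on day 1, without overlap. This sum included Il1r2 and Csf3r, and S100a8 alone gave 65.6 and 48.6 on sham and 236 and 639 on day 1. Cxcr2, Camp and Mmp9 were below the level filter, with 1 higher and 1 lower in both conditions. Csf3r, the receptor of the growth factor for neutrophils, read 11.5 and 10.9 on sham, 45.5 and 95.5 on day 1 and 12.9 and 18.7 on day 7. Il1r2 and S100a8, counted above among receptors and defence proteins, are also in this list, and the part of neutrophils in those groups was not tested. Macrophage markers summed to 6671 and 5763 on sham and 10030 and 12760 on day 1, and of 16 only Ccr1 passed (0, 0, 1 and 1), at 2.16.

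Lymphocyte markers had 4 of 11 lower (0, 0, 0 and 0), Gzmb, Cd4, Cd2 and Klrd1, and summed to 1548 and 1408 on sham and 729 and 854 on day 1. Without Gzmb the sums were 805 and 804 on sham and 722 and 848 on day 1, so the fall of the sum was that of Gzmb and the groups overlapped without it. Of 4 tested mast cell markers Cma1 and Cpa3 were lower (0, 0, 0 and 0), both at -1.36. Fibroblast markers had 2 of 12 lower (0, 0, 2 and 0), Mfap4 and Gsn, and 1 of 12 above 0, with sums of 16720 and 13140 on sham and 9988 and 7651 on day 1. Mfap4 is therefore counted among the lower genes and among these markers, and the part of fibroblast content in its change was not tested. Lum, a collagen-binding proteoglycan of fibroblasts, was at -1.80 ± 0.50 (limma adjusted p = 0.051), with 298 and 254 on day 1 and 2362 and 2195 on day 7. Of 12 smooth muscle markers Lmod1 was lower (0, 0, 1 and 0), and of 5 neural markers Dbh was higher (0, 0, 1 and 0). Their differences from day 7 were -0.34 and 0.18. By brightest probe sets no marker of endothelium, mesothelium, adipocytes, skeletal muscle, red cells or platelets or of atrial muscle passed, out of 12, 7, 3, 6, 4, 5 and 5 tested. Another probe set of the mesothelial marker Lrrn4 rose by 1.91 ± 0.26 (limma adjusted p = 0.0018), from 28.1 and 13.45 on sham to 132 and 108 on day 1, with 109 and 110 on day 7.

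Whether the change at day 1 differed between diabetic and non-diabetic rats was tested as an interaction, which used 1 array in each cell of the design. None of 18625 probe sets (0.0%) passed, 305 had an unadjusted p under 0.05, and the lowest adjusted p in limma was 1.0. In simulated data this test recovered 0% of planted differences of 2 on the log2 scale and 39% of those of 3. The lack of calls therefore does not show that the change was alike in both conditions. Of the 5 genes with the largest difference each way, Dusp6, Myl7 and Dbp follow as values, with Pdk4 from a fixed set of genes. The others were Fam111a, Ifit1, Zdhhc5, Iqcb1, Cryl1, Ap1s3 and RT1-T24-3. Zdhhc5 read 349 and 508 on sham, 0.00332 and 266 on day 1 and 430 and 0.00236 on day 7. Fam111a read 688.5 and 1189 on sham, 17.9 and 964 on day 1 and 1315 and 35.3 on day 7. Dusp6, a phosphatase that inhibits ERK, read 204 and 25.7 on sham and 171 and 591 on day 1, and its 2 other probe sets had diabetic differences of 2.00 and -0.55. Myl7, the atrial myosin light chain, read 157 and 43.9 on sham and 96.3 and 698 on day 1. Dbp, an output gene of the circadian clock, read 51.1 and 329 on sham and 292 and 93.9 on day 1. Pdk4, a kinase that inhibits pyruvate dehydrogenase, read 313 and 2937 on sham and 1501 and 2224 on day 1, and its other probe set differed by -0.79 and -3.59. By the brightest probe sets of Dusp6, Myl7, Dbp and Pdk4, the sham arrays of the 2 conditions already differed. The day 1 difference of these 4 genes went in opposite directions, while another Dusp6 probe set was higher and another Pdk4 probe set lower in both.

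The promoters of genes that moved together can be set beside these groups. RefSeq sequences of the build GRCr8 were used for the 250 bases before each annotated start, and 164 of the 211 genes named by rule had an entry. The sequences below are those of 3 higher genes with a match to the NF-kappaB consensus, of Egr2 with a CArG box, the serum response element, and of 2 lower genes with an interferon-stimulated response element. Each is given 5' to 3' on the strand of the gene, with matches of any searched motif in capitals.
Ccl20, chr9:91836909-91837158, plus strand: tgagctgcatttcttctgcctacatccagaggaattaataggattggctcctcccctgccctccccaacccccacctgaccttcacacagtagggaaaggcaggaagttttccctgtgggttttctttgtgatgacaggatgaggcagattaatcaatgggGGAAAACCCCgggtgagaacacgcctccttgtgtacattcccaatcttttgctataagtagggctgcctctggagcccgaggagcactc
Cxcl1, chr14:17479322-17479571, minus strand: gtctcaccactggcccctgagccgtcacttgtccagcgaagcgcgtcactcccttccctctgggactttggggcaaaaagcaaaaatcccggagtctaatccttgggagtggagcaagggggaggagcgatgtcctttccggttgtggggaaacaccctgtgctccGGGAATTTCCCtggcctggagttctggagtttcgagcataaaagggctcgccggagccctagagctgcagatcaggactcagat
Lcn2, chr3:36081781-36082030, minus strand: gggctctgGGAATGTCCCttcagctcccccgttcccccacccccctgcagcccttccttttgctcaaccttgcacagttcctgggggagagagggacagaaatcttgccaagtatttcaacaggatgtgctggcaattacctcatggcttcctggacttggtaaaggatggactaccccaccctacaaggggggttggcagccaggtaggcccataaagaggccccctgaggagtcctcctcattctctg
Egr2, chr20:21054442-21054691, minus strand: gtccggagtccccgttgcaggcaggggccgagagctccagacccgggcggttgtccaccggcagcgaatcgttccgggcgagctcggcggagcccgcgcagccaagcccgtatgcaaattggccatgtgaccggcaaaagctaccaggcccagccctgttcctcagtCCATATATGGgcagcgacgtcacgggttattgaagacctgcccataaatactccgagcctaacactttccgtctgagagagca
Irf7, chr1:205800024-205800273, minus strand: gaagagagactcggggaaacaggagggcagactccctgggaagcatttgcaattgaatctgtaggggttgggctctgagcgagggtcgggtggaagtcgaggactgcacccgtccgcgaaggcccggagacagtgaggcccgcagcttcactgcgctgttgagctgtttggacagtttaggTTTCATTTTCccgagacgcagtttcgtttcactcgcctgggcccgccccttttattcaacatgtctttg
Irgm, chr10:33742579-33742828, minus strand: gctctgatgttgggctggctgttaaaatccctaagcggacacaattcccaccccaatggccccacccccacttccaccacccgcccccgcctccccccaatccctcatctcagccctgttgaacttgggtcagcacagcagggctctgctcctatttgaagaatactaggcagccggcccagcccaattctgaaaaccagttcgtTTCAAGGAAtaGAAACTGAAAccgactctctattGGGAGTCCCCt

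In Cxcl1 the capitals mark overlapping NF-kappaB matches on both strands, from 84 to 74 bases before the start. In Ccl20 the NF-kappaB match lay 89 to 80 bases before the start on the opposite strand, and in Lcn2 it lay 242 to 233 bases before it, also on the opposite strand. The CArG box of Egr2 lay 83 to 74 bases before the start. In Irf7 the interferon-stimulated response element lay 69 to 60 bases before the start. In Irgm the capitals mark, from left to right, a STAT match, an interferon-stimulated response element on the opposite strand and an NF-kappaB match.

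Such matches are common. The NF-kappaB consensus was found, on either strand, in 18 of the 174 higher genes with an entry (10.3%) and in 1 of the 72 lower genes (1.39%). Of the 8862 tested genes with an entry 8.86% held it, and 6.92% of all 27457 genes listed, so the share in the higher genes was near that of all tested genes. The AP-1 site TGANTCA was found in 12 higher genes (6.9%) and 9 lower genes (12.5%), against 4.95% of tested genes. The STAT site TTCNNNGAA was found in 6.9% and 9.72%, against 6.38%, and the E-box CACGTG in 8.62% and 5.56%, against 8.68%. The cAMP response element TGACGTCA was found in 2.87% and 4.17%, against 2.97%. The interferon-stimulated response element was found in 1.72% and 4.17%, against 2.81%, and the CArG box in 2.3% and 0.0%, against 1.4%. Over all genes listed the shares of these 6 motifs were 6.99%, 8.19%, 6.18%, 1.78%, 3.61% and 1.62% in that order. A match is a description of the sequence and not a binding site, and no test was made.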

How the data were processed

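Left ventricular RNA of 12 pools, each of 3 rats, was measured on 12 Affymetrix rat arrays, 1 for each group. Per the labels' protocols RNA was extracted with TRIzol and cleaned with RNeasy columns. The intensities deposited by the authors are on a linear scale and came from Affymetrix Expression Console with PLIER, per the submitters' processing notes. Their versions and settings are not given in the sources used. PLIER values near 0 carry little order, so log2 of the intensity plus 16 was used.

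Of 31099 rows, 57 control probe sets were set aside, and 18625 of 31042 probe sets with a mean log2 level above the 40th percentile (5.2) were kept. A model with time point and diabetes was fitted with limma 3.58.1 in R 4.3.3 (trended variances, 5 residual degrees of freedom), with Benjamini-Hochberg adjustment over all kept probe sets. SE is that of the model. A gene was represented by its brightest probe set with 1 symbol: 20826 probe sets had 1 symbol, 436 several, and 9780 were not listed. The number of arrays limits the precision. P-values measure the spread between arrays of pools. The scripts were tested on simulated data.

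Genes named were the 15 higher and 15 lower with the largest change shared by both conditions, up to 4 per list with the smallest p, the 5 with the largest difference between conditions each way, and a fixed set of well-known genes; other list members that passed were named after their values were seen, as were Ankrd1, Isg15, Fos and Fkbp5. The members and lists were chosen with earlier results of these data known. Alternatives were other offsets, filters, scalings and models and the removal of arrays. Equal medians of the kept probe sets was chosen after seeing the data. Promoters were RefSeq sequences of GRCr8, matched by symbol and searched over the 250 bases before each start.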

Additional observations from a re-analysis of the deposited data

Results flagged for a closer look

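In several gene lists the median day 1 minus sham difference on the log2 scale had opposite signs in the non-diabetic and the diabetic comparison. Each is 1 array against 1, and the difference between conditions was not tested for the lists. The potassium and sodium channels had 0.08 in non-diabetic and -0.74 in diabetic rats. Circadian clock genes had 0.58 and -0.07, adrenergic signalling genes 0.07 and -0.47, and genes of fatty acid uptake and oxidation 0.17 and -0.36. Calcium handling genes had 0.13 and -0.12, genes of glucose use 0.19 and -0.05, and adult sarcomere genes 0.01 and -0.13. The other way round, chemokines had -0.17 and 0.14, growth factors -0.01 and 0.09, and apoptosis genes -0.05 and 0.06. Platelet markers had -0.72 and 0.28.

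Outside the measured genes, the control probe set for 5S ribosomal RNA was 1.07 higher on day 1 than on sham. It read 41.9 and 41.0 on sham, 93.0 and 118 on day 1 and 70.3 and 82.5 on day 7. The part of ribosomal RNA in the results was not tested.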

How the results depend on the processing

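The count of 1392 probe sets past the threshold, 783 higher and 609 lower, became 2740 (1616 and 1124) with the 4 arrays of sham and day 1 only, 638 (389 and 249) with a filter at the 60th percentile, and 2384 (1372 and 1012) with no filter. It was 2701 (1589 and 1112) without the day 28 pair, where 9 probe sets also passed for the difference between conditions, and 905, with 371 lower, without the day 7 pair. When 1 of the 4 arrays was left out, 187 to 893 passed, with 130 to 451 higher and 57 to 442 lower; the lone array left in a group was then assumed to vary like the others. With equal medians of the kept probe sets 1006 were lower, and 424 lower in both conditions. The 668 changed in both conditions became 398 (240 and 158) at the 60th percentile and 238 (180 and 58) with an offset of 64, and the lower ones 468 with an offset of 1. The 3' minus 5' gap of hexokinase between day 1 and sham was 3.82 and 0.81 with offsets of 1 and 64, its 3' minus middle gap 2.58 and 1.29, and the phe gap -0.85 and -0.47. Other probe sets of Gabbr1 gave 0.08 and 0.54. The causes were not tested. Of 101 named genes that passed, 31 did so in every alternative in which they were tested, and 67, 68, 25 and 52 lost their call without the diabetic day 1, diabetic sham, non-diabetic day 1 and non-diabetic sham array. The count in both conditions was not computed without 1 of these arrays. No paired analysis was possible because each group has 1 array and the groups share only the number 1. Signal near background limits the dim genes.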
